A study of Homo sapiens with 16 samples.

Results

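Transcript levels of 10 genes of bone morphogenetic protein (BMP) signalling were compared across 6 sublines of SW480, an immortal cell line that came from the colon adenocarcinoma of a patient. The genes were the ligands BMP2, BMP4 and BMP7, the receptors BMPR1A and BMPR2, the inhibitory SMADs SMAD6 and SMAD7, and the targets ID1, ID2 and ID3. They were taken by their GENCODE symbols, and they are 10 of the 66023 identifiers in the count table. All 10 passed the filter on low counts over the 6 lines, while BMP2 fell below it in the comparison of the overexpression line with its control.

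Parental cells (n = 2) carried no construct, and the other lines carried lentiviral constructs and were selected with puromycin. shScrambled (n = 2) expressed an shRNA with no mammalian target. shAjuba1 (n = 3) expressed an shRNA against the coding region of AJUBA, which encodes a LIM-domain adaptor protein, and shAjuba2 (n = 3) an shRNA against a non-coding part of the same transcript. Ajuba OE (n = 3) carried an AJUBA construct with a FLAG-HA tag under the CMV promoter, and Control (n = 3) carried that construct after removal of its AJUBA sequence. Each condition was 1 line, and the study calls the replicates technical, so p-values measure the spread between samples of a line. A change in RNA per cell and a change in the share of cells that express a gene cannot be told apart in these bulk samples.

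BMP ligands are secreted dimers that bring type I receptors such as BMPR1A and type II receptors such as BMPR2 together at the cell surface. The receptors phosphorylate SMAD1, SMAD5 and SMAD9, which act with SMAD4 in the nucleus and induce the ID genes, whose products hold basic helix-loop-helix factors away from DNA. SMAD6 and SMAD7 feed back on the receptors, and antagonists such as noggin and GREM1 trap the ligands outside the cell. In the intestine the pathway is known for restraining stem cells and for favouring differentiation towards the top of the crypt.

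Total counts ranged from 30132396 to 69684675 per sample. AJUBA was at 49.6, 47.3 and 53.5 RPM (counts of the gene per 1000000 counts of the sample) in shAjuba1, at 60.3, 68.6 and 57.1 RPM in shAjuba2, and at 83.4 and 81.6 RPM in shScrambled. It fell by 0.73 ± 0.08 (log2, SE) in shAjuba1 (adjusted p = 2.19e-05; here and throughout edgeR's quasi-likelihood test, with the adjustment of Benjamini and Hochberg). In shAjuba2 the log2 difference was -0.46 ± 0.13 (adjusted p = 0.0773), short of the 0.05 threshold, although no sample of shAjuba2 reached the level of shScrambled. It was called against Parental (-0.60, adjusted p = 0.0364), with DESeq2 (0.0495), in the fit to all 16 samples (0.0137), with the replicate block (0.0437) and without shAjuba2 replicate 2 (0.000481). In Ajuba OE it rose 5.90-fold (adjusted p = 7.69e-05), from 89.4 to 100.5 RPM in Control to 461.8 to 566.2 RPM. The 8 colon epithelial markers, among them EPCAM and CDH1, summed to 2901 to 7009 RPM and all were detected. KRT8 and KRT18 had the highest means of the 8, at 2511 and 2161 RPM, while LGALS4 was at only 0.277 to 0.938 RPM. Fibroblast, endothelial and immune markers summed to at most 37.6, 5.63 and 7.82 RPM. Replicate 2 of shAjuba2, Control and Ajuba OE stood apart, with 18.5% to 21.2% of counts on mitochondrial genes and 1.39% to 2.28% on ribosomal protein genes, against 9.66% to 17.2% and 2.81% to 4.58% in the other 13 samples.

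Per kilobase of exon, BMP4 and ID2 had the highest levels of the 10 genes, with means over the 16 samples of 85.1 and 72.6 RPM per kb. BMP7 followed at 27.7, BMPR2 at 9.04, SMAD7 at 7.87 and BMPR1A at 2.92 RPM per kb. ID1 was at 1.30, SMAD6 at 0.655, ID3 at 0.422 and BMP2 at 0.112 RPM per kb, and the counts behind the lowest of these were small, from 2 to 46 per sample for BMP2 and from 12 to 59 for ID3. SMAD4, the partner that the receptor SMADs share, had only 0.0606 RPM per kb, or 40 to 77 counts per sample, whereas SMAD5 had 15.5 RPM per kb.

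**Figure D1:**
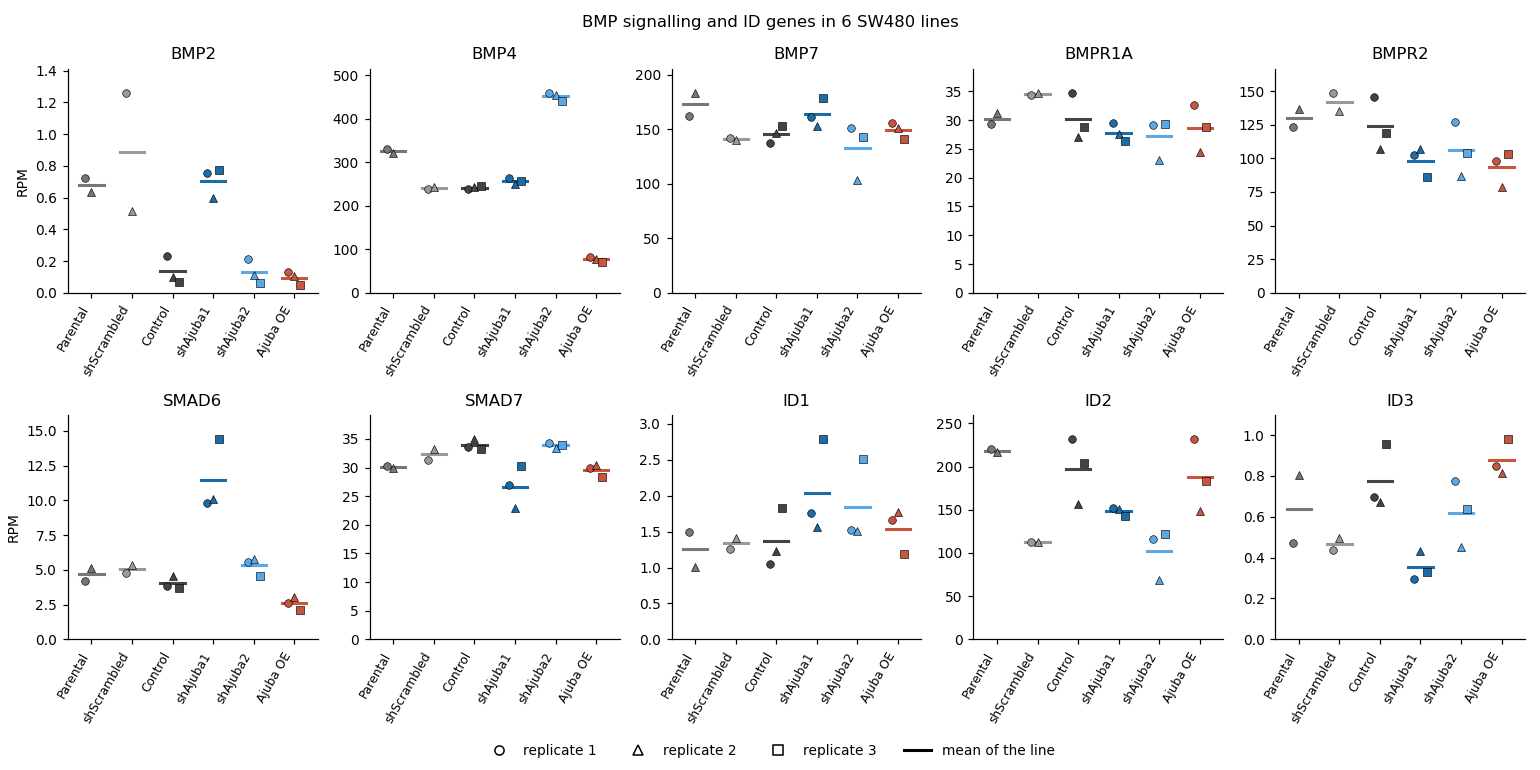
Level of each of the 10 genes in RPM (vertical axes, one scale per gene) in the 6 lines; points are samples, their shape is the replicate number and bars are line means. BMP4 separates shAjuba2 (441 to 460 RPM) and Ajuba OE (71.7 to 81.3 RPM) from all other lines, and SMAD6 is highest in the 3 samples of shAjuba1.

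Over all 6 lines, 6 of the 10 genes differed, where 45.7% of all genes tested did. These were BMP2, BMP4, BMPR2, ID2, ID3 and SMAD6, with adjusted p from 3.26e-10 for BMP4 to 0.0345 for BMPR2. The test did not call BMP7 (adjusted p = 0.055), SMAD7 (0.0579), BMPR1A (0.193) or ID1 (0.282). Against shScrambled, 4 of 10 were called in shAjuba1, where 38.4% of all genes were, and 2 of 10 in shAjuba2, where 7.63% were. In Ajuba OE against Control, 1 of the 9 genes tested was called, beside 5.43% of all genes. For shAjuba1, shAjuba2 and Ajuba OE the median log2 fold change of the genes tested was -0.09, -0.06 and -0.02, against -0.01, -0.01 and -0.02 over all genes.

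**Figure D2:**
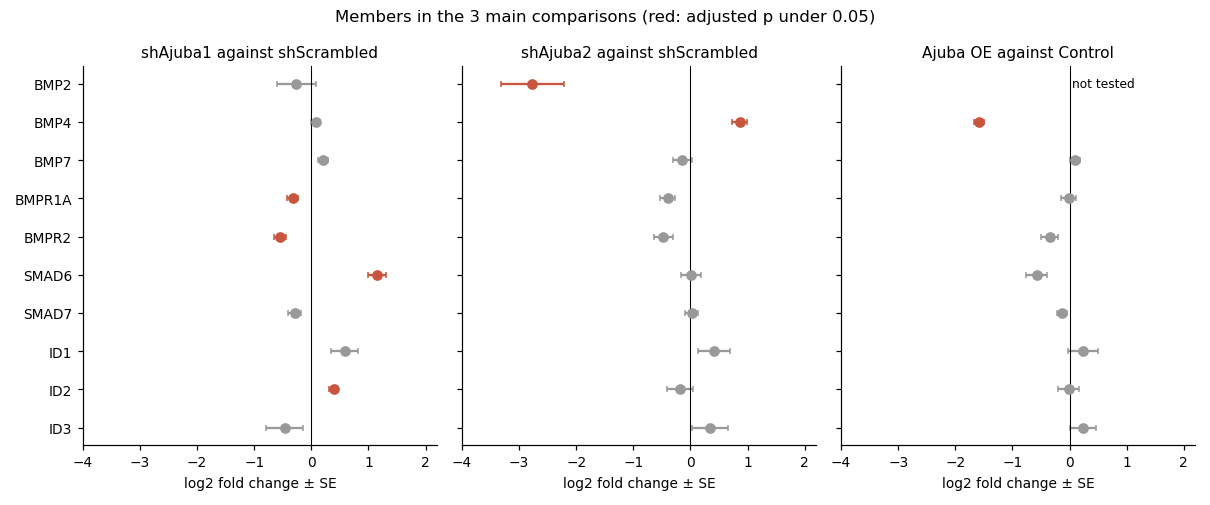
Log2 fold change of each gene (horizontal axes, ± SE) in shAjuba1 and shAjuba2 against shScrambled and in Ajuba OE against Control; red marks an adjusted p under 0.05. BMP4 lies at 0.08, 0.86 and -1.59 in the 3 comparisons, and SMAD6 at 1.15 in shAjuba1.

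BMP4 was the ligand with the highest level and the gene of the 10 that separated the lines most clearly. The gene (ENSG00000125378) lies at chr14:53949736-53958761 on the minus strand of hg38, in 7 exon blocks, and an antisense lncRNA (ENSG00000287156) shares some of its exon positions. Its level was 460.2, 455.1 and 440.6 RPM in shAjuba2, 330.3 and 320.6 RPM in Parental, and 263.1, 250.9 and 256.4 RPM in shAjuba1. It was 238.0, 243.2 and 244.6 RPM in Control, 238.2 and 242.7 RPM in shScrambled, and 81.3, 78.2 and 71.7 RPM in Ajuba OE. Only Control and shScrambled overlapped, and every other neighbour in this order was separated by its samples. Against Control, BMP4 fell by 1.59 ± 0.09 on the log2 scale in Ajuba OE, a 3.00-fold lower level (adjusted p = 0.000153). Against shScrambled, it rose 1.82-fold in shAjuba2, a log2 change of 0.86 ± 0.13 (adjusted p = 0.00931), and the value in shAjuba1 was 0.08 ± 0.08 (adjusted p = 0.454). With Parental as the control the sign turned in shAjuba1 and BMP4 was called lower (log2 -0.37, adjusted p = 0.0016). The log2 fold change of shAjuba1 over shAjuba2 was -0.77 ± 0.11 (adjusted p = 0.00139). The call in shAjuba2 was lost without shAjuba2 replicate 1 (adjusted p = 0.0573) or without shScrambled replicate 1 (0.168) or replicate 2 (0.172), with log2 fold changes of 0.85 to 0.88, and with Parental as the control it was 0.41 (adjusted p = 0.0802). The samples with many mitochondrial reads stayed close to the others of their lines, at 1.01, 1.01 and 1.02 times their mean.

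The summed level of the 6 fibroblast markers was, like BMP4, highest in shAjuba2 (25.0 to 37.6 RPM) and lowest in Ajuba OE (6.21 to 10.4 RPM). It was 22.4 to 22.8 RPM in shScrambled, 15.6 to 24.6 RPM in Control, 18.1 to 22.6 RPM in shAjuba1 and 18.9 to 19.7 RPM in Parental, so that Parental lay below shScrambled, the reverse of their order for BMP4. The sum was mostly COL1A1, with means of 22.1 RPM in shAjuba2 and 7.15 RPM in Ajuba OE, and PDGFRB, with 9.68 and 0.44 RPM. COL1A2, COL3A1, DCN and LUM reached at most 0.412, 0.112, 0.0209 and 0.357 RPM in any sample. PDGFRB, a receptor of pericytes and fibroblasts, fell by 3.25 on the log2 scale in Ajuba OE (adjusted p = 0.000203), 1 of 2 markers tested there. In shAjuba2 LUM was the 1 of 4 markers called, and it was lower, with 0.258 to 0.357 RPM in shScrambled and 0 in shAjuba2 (adjusted p = 0.015), while DESeq2 called 0. DCN and LUM were at 0 in shAjuba2, and COL3A1, DCN and LUM were at 0 in Ajuba OE. The part of other cells in the BMP4 result was not tested.

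The secreted antagonist GREM1, which binds BMP4 and BMP2, was, like BMP4, highest in shAjuba2 and lowest in Ajuba OE. GREM1 was at 16.2, 14.03 and 20.6 RPM in shAjuba2, at 8.15 and 6.72 RPM in shScrambled and at 6.03 and 5.67 RPM in Parental. It was at 3.55, 3.59 and 3.37 RPM in Control, at 2.60, 2.62 and 2.13 RPM in shAjuba1 and at 0.201, 0.188 and 0.176 RPM in Ajuba OE. No 2 lines overlapped. GREM1 shares the positions of its first exons with GREM1-AS1 on the opposite strand, whose reads cannot be told apart if the counting ignored strand. GREM1 rose 2.21-fold in shAjuba2 (log2 1.14 ± 0.19, adjusted p = 0.0157), fell by 1.61 ± 0.15 in shAjuba1 (adjusted p = 4.36e-06) and fell by 4.13 ± 0.18 in Ajuba OE (adjusted p = 7.69e-05), where Control was 17.5-fold higher and the log2 value against Parental was -4.88. The 2 knockdown lines thus stood on opposite sides of shScrambled, and shAjuba1 over shAjuba2 gave -2.74 ± 0.18 on the log2 scale (adjusted p = 2.54e-05). The rise of GREM1 in shAjuba2 was lost without shAjuba2 replicate 1 (adjusted p = 0.0619) and without shScrambled replicate 1 (0.0982) or replicate 2 (0.199).

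**Figure D3:**
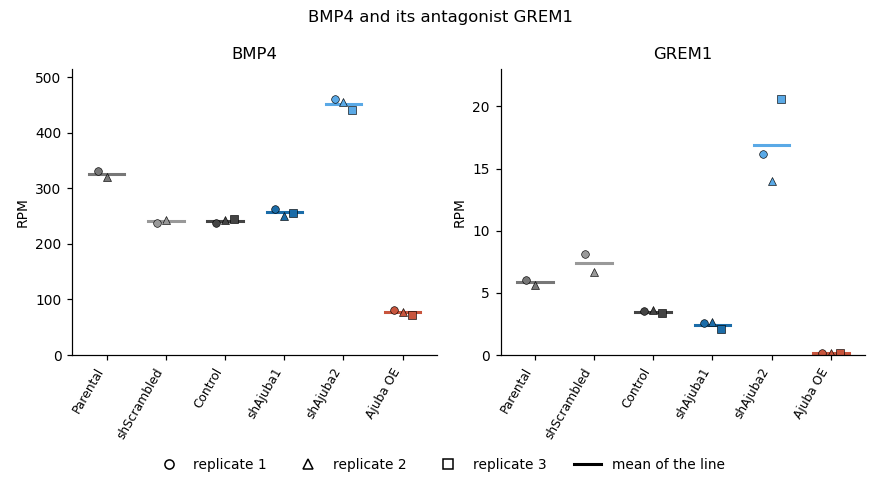
BMP4 and GREM1 in RPM (vertical axes, one scale per gene) in the 6 lines; points are samples, their shape is the replicate number and bars are line means. Both genes are highest in shAjuba2 and lowest in Ajuba OE, where GREM1 is at 0.176 to 0.201 RPM, while GREM1 in shAjuba1 lies below shScrambled.

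The sequences just upstream of a RefSeq transcript start of BMP4 and of GREM1 are shown because these genes moved together in shAjuba2 and Ajuba OE. They are the 250 bases before that start, 5′ to 3′ on the gene's strand, on GRCh38.p14. The positions are chr14:53955051-53955300 (minus strand) for BMP4 and chr15:32717754-32718003 (plus strand) for GREM1. For BMP4 this stretch lies inside the span of the GENCODE gene, whose 5′ end is at chr14:53958761. Capitals mark GGCGCC, which SMAD1 and SMAD5 bind, and CAGAC or its reverse complement GTCTG, which SMADs bind more widely.
BMP4: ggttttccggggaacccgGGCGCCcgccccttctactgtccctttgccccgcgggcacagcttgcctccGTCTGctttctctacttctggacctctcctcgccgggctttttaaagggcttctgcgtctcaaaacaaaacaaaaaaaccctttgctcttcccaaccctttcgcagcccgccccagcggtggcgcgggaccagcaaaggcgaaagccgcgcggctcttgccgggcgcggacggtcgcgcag
GREM1: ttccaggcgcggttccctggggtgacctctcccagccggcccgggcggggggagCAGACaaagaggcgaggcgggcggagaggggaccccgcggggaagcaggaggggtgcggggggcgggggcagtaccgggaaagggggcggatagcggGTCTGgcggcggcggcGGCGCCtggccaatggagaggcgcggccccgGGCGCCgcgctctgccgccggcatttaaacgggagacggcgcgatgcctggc
BMP4 held 1 GGCGCC and 1 GTCTG, and GREM1 held 2 GGCGCC and 2 of the shorter motif on either strand. Among 35116 promoters of the same length, 16.4% held GGCGCC and 38.0% held CAGAC on either strand. RefSeq gives 2 further starts for BMP4, with no GGCGCC and with 0 and 1 CAGAC, and 1 further start for GREM1, with 0 GGCGCC and 1 CAGAC. Promoters of 8 of the 10 genes were found, and those of BMP2 and BMP7 were not. BMPR2 held 1 GGCGCC and 2 CAGAC, ID3 held 1 CAGAC, the first start of SMAD7 held 2 CAGAC, and ID1, ID2, SMAD6 and BMPR1A held neither motif. A match describes the letters and does not show binding.

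BMP2, a ligand that shares its receptors with BMP4, was near the limit of detection in all lines and fell into 2 ranges. It was at 1.26 and 0.517 RPM in shScrambled, 0.754, 0.597 and 0.773 RPM in shAjuba1 and 0.723 and 0.635 RPM in Parental. In Control it was at 0.233, 0.102 and 0.0683 RPM, in shAjuba2 at 0.215, 0.113 and 0.0617 RPM and in Ajuba OE at 0.129, 0.104 and 0.0503 RPM. No sample of the first 3 lines overlapped with a sample of the last 3. BMP2 fell by 2.77 ± 0.55 on the log2 scale in shAjuba2 against shScrambled (adjusted p = 0.027) and was 5.61-fold higher in shAjuba1 than in shAjuba2 (adjusted p = 0.00194). Control was also lower than shScrambled, with a log2 difference of -2.72 ± 0.57 (adjusted p = 0.04). These calls rest on 3 to 10 counts per sample in shAjuba2. The one in shAjuba2 was lost without shAjuba2 replicate 1 (adjusted p = 0.0699), shAjuba2 replicate 3 (0.055) or shScrambled replicate 1 (0.229), and the one in Control without Control replicate 3 (0.165), shScrambled replicate 1 (0.269) or shScrambled replicate 2 (0.0586).

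BMP7, the third ligand of the set, was at 103 to 184 RPM in all samples. It was at 162.0 and 183.7 RPM in Parental and at 141.8 and 140.0 RPM in shScrambled, and the log2 difference was -0.30 ± 0.08 (adjusted p = 0.00569), which was not called without Parental replicate 2 (adjusted p = 0.213). In shAjuba1 its log2 fold change was 0.21 ± 0.08 (adjusted p = 0.0631), in shAjuba2 -0.14 ± 0.16 (adjusted p = 0.63) and in Ajuba OE 0.10 ± 0.09 (adjusted p = 0.643). Its samples overlapped between all neighbouring lines.

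Of the 13 ligands on the list, 3 of the 7 tested were called in Ajuba OE, 2 of 8 in shAjuba1 and 2 of 9 in shAjuba2, beside 5.43%, 38.4% and 7.63% of all genes, the shares against which the counts of every list are to be read. BMP6, a ligand best known for control of iron, rose in shAjuba1 from 0.823 and 0.954 RPM to 3.18, 2.66 and 2.93 RPM, a log2 change of 1.70 (adjusted p = 1.81e-05). shScrambled lay below Parental for BMP6 (log2 -0.99, adjusted p = 0.00289), and against Parental the shAjuba1 value was 0.70 (adjusted p = 0.00678). It rose 2.90-fold in Ajuba OE, from 1.45 to 2.01 RPM in Control to 3.98 to 5.40 RPM (adjusted p = 0.00329), and its log2 fold change in shAjuba2 was 0.04 ± 0.27. BMP5 fell in Ajuba OE from 1.19, 0.918 and 1.07 RPM to 0.230, 0.0833 and 0.101 RPM (log2 -2.76 ± 0.35, adjusted p = 0.00473), and against Parental its value was -3.93. In Ajuba OE, therefore, BMP4 and BMP5 were lower and BMP6 higher than in Control, with no overlap between the samples of the 2 lines for any of the 3.

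BMPR2, the type II receptor, was lower in shAjuba1. It shares exon positions with ENSG00000289490 on the same strand, so part of its reads may belong to either gene. It was at 102.6, 106.6 and 85.9 RPM in shAjuba1 and at 148.9 and 135.4 RPM in shScrambled, and the groups did not overlap. The fall was 0.55 ± 0.10 on the log2 scale (adjusted p = 0.00104). In shAjuba2 it was at 127.4, 87.0 and 103.9 RPM, all below shScrambled, and the log2 fold change was -0.47 ± 0.16 (adjusted p = 0.116). Ajuba OE, at 98.3, 78.3 and 103.1 RPM, lay below the 3 Control samples at 145.6, 107.0 and 118.6 RPM, with a log2 difference of -0.35 ± 0.15 (adjusted p = 0.27). BMPR1A, a type I receptor, was at 29.5, 27.5 and 26.4 RPM in shAjuba1 against 34.4 and 34.7 RPM in shScrambled, a fall of 0.33 ± 0.09 (adjusted p = 0.0135). In shAjuba2 it was at 29.1, 23.1 and 29.3 RPM, also below both shScrambled samples, with a log2 difference of -0.40 ± 0.13 (adjusted p = 0.114). The BMPR1A call was lost without shScrambled replicate 1 (adjusted p = 0.113) or replicate 2 (0.0952) and against Parental (0.231).

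Both receptors were low in the samples with many mitochondrial reads. Replicate 2 had 0.752, 0.81 and 0.778 times the BMPR2 level of the other samples of shAjuba2, Control and Ajuba OE, and 0.791, 0.848 and 0.796 times the BMPR1A level. Without replicate 2 of shAjuba2, both receptors passed the threshold in that line, with log2 fold changes of -0.36 for BMPR2 (adjusted p = 0.0239) and -0.30 for BMPR1A (adjusted p = 0.0359). The part of RNA quality in these values was not tested. Of 12 receptors and coreceptors on the list, 5 of 10 tested were called in shAjuba1, with ACVR1, BMPR1A, BMPR2 and NEO1 lower and ENG higher. The test called 0 of 11 in shAjuba2 (4 at an unadjusted p under 0.05 and 1 by DESeq2) and 0 of 10 in Ajuba OE (0 at an unadjusted p under 0.05 and 0 by DESeq2).

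Among the receptor SMADs, SMAD5 had the highest level per kb and rose in shAjuba1 from 124.1 and 115.6 RPM to 155.0, 165.9 and 134.1 RPM (log2 0.33 ± 0.10, adjusted p = 0.0202). That call was lost in 4 of 5 fits without 1 sample, namely without shAjuba1 replicate 1 (adjusted p = 0.0721) or 2 (0.0691) and without shScrambled replicate 1 (0.0651) or 2 (0.187), and against Parental the value was 0.05 (0.731). In the same line SMAD1 fell by 0.38 (adjusted p = 0.0109) and SMAD9 by 0.68 (adjusted p = 0.0281). The list of 4 SMADs had 0 called in shAjuba2 and 0 in Ajuba OE, and none of its genes had an unadjusted p under 0.05 or was called by DESeq2 in either comparison.

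SMAD6, an inhibitor that acts mainly on the BMP branch and is itself a target of it, rose in shAjuba1. The gene (ENSG00000137834) lies at chr15:66702236-66782849 on the plus strand. Its level was 9.82, 10.1 and 14.4 RPM in shAjuba1, 5.59, 5.77 and 4.59 RPM in shAjuba2, and 4.80 and 5.37 RPM in shScrambled. Parental was at 4.21 and 5.13 RPM, Control at 3.85, 4.57 and 3.71 RPM and Ajuba OE at 2.63, 3.04 and 2.09 RPM. shAjuba1 lay above and Ajuba OE below every other line, and the lines between them overlapped. The rise in shAjuba1 was 2.22-fold, a log2 change of 1.15 ± 0.16 (adjusted p = 0.000139), and this line exceeded shAjuba2 by the same factor of 2.22 (adjusted p = 0.00205). In shAjuba2 the log2 fold change was 0.01 ± 0.17 (adjusted p = 0.969), and in Ajuba OE it was -0.58 ± 0.18 (adjusted p = 0.132). The rise in shAjuba1 was called in all 12 alternatives tried at the 0.05 threshold, with log2 fold changes of 0.96 to 1.25.

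SMAD7, the inhibitor that also acts on TGF-beta receptors, varied little, between 22.9 and 35.0 RPM over the 16 samples. It was at 26.9, 22.9 and 30.2 RPM in shAjuba1 and at 31.3 and 33.3 RPM in shScrambled, with no overlap and a log2 fold change of -0.29 ± 0.11 (adjusted p = 0.0526). That value passed the threshold without shAjuba1 replicate 3 (-0.37, adjusted p = 5.72e-05). The log2 fold change was 0.02 ± 0.11 in shAjuba2 and -0.13 ± 0.09 in Ajuba OE. The 2 inhibitory SMADs therefore had log2 fold changes of opposite sign in shAjuba1, of which that of SMAD6 was called.

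Of 11 inhibitors inside the cell or at its membrane, 7 were called in shAjuba1, of which 3 were higher and 4 lower, and 2 in shAjuba2. BAMBI, a decoy receptor that lacks a kinase domain, had the highest level of this list at 43.0 RPM per kb. It rose 2.13-fold in shAjuba1, from 59.6 and 58.6 RPM to 126.1, 122.1 and 134.0 RPM (adjusted p = 6.97e-07), and its log2 fold change in shAjuba2 was 0.06 ± 0.21. Parental, at 112.6 and 121.5 RPM, lay just below shAjuba1, and against it the log2 value was 0.09 (adjusted p = 0.372). PMEPA1, which sequesters receptor SMADs of the TGF-beta branch, fell by 0.62 ± 0.09 in shAjuba1 (adjusted p = 0.000108) and by 0.96 ± 0.11 in shAjuba2 (adjusted p = 0.00383). Its levels in shAjuba1 (41.2 to 46.7 RPM) and shAjuba2 (32.5 to 36.8 RPM) lay near those of Parental (34.5 and 38.4 RPM), whereas shScrambled was at 67.5 and 65.8 RPM, and against Parental PMEPA1 was called in neither line (log2 0.24 and -0.11). In shAjuba2 its call was also lost without shScrambled replicate 1 (adjusted p = 0.0744) or 2 (0.0721). In Ajuba OE 0 of the 11 were called (3 at an unadjusted p under 0.05 and 0 by DESeq2).

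Among 14 secreted antagonists, 4 of 8 tested were called in shAjuba1 (FSTL3 and NOG higher, GREM1 and SOSTDC1 lower), 2 of 8 in shAjuba2 (FSTL3 and GREM1, both higher) and 1 of 7 in Ajuba OE (GREM1, lower). FSTL3, which binds activins and some BMPs, rose in both knockdown lines against their shared control, by 0.68 ± 0.14 in shAjuba1 (adjusted p = 0.00216) and by 0.89 ± 0.13 in shAjuba2 (adjusted p = 0.0104). It was at 16.7, 14.5 and 21.3 RPM in shAjuba1, at 20.6, 21.7 and 19.5 RPM in shAjuba2 and at 10.4 and 11.2 RPM in shScrambled. In shAjuba2 the call was lost without shAjuba2 replicate 1 (adjusted p = 0.0547) or without shScrambled replicate 1 (0.171) or 2 (0.141). Against Parental FSTL3 was called in neither line (log2 0.19 and 0.39, adjusted p = 0.311 and 0.0854). TWSG1 had the highest level of this list, at 15.4 RPM per kb. It was not called in shAjuba1, shAjuba2 or Ajuba OE (log2 -0.31, -0.33 and -0.13).

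**Figure D4:**
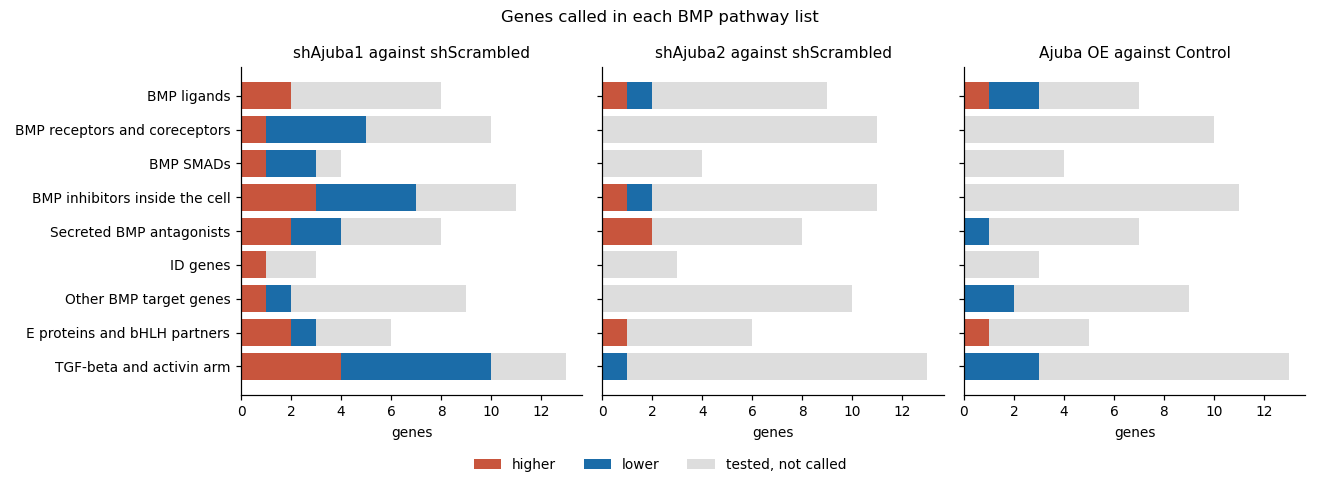
Number of genes tested (bars) and called higher or lower (red and blue) in each of the 9 lists of BMP pathway genes, in the 3 main comparisons (horizontal axes, genes). The receptor list has 5 of 10 called in shAjuba1, beside 38.4% of all genes. Its count is 0 for shAjuba2, beside 7.63% of all genes, and 0 for Ajuba OE, beside 5.43%. Whether the receptors differ from all genes in these shares was not tested. The antagonist called in Ajuba OE, GREM1, was lower.

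ID2 (ENSG00000115738, chr2:8678845-8684461, plus strand) was the ID gene with by far the highest level. It was at 219.9 and 216.9 RPM in Parental, 231.6, 156.2 and 204.3 RPM in Control and 231.8, 148.8 and 182.9 RPM in Ajuba OE. shAjuba1 was at 152.1, 150.5 and 142.9 RPM, shScrambled at 112.3 and 112.2 RPM and shAjuba2 at 116.6, 68.7 and 121.9 RPM. The 3 lines with an shRNA thus had lower means than the 3 lines without one, although shAjuba1 overlapped with Ajuba OE. ID2 rose 1.31-fold in shAjuba1 against shScrambled (log2 0.39 ± 0.08, adjusted p = 0.00174). Against Parental the sign turned, to -0.58 ± 0.07 (adjusted p = 9.61e-05), as shScrambled itself lay below Parental, at -0.97 ± 0.08 (adjusted p = 8.32e-10). In shAjuba2 the log2 fold change against shScrambled was -0.19 ± 0.22 (adjusted p = 0.64), and against Parental it was -1.16 (adjusted p = 0.0324). Ajuba OE and Control overlapped, with a log2 difference of -0.01 ± 0.19 (adjusted p = 0.98). In the fit to all 16 samples the rise in shAjuba1 was not called (log2 0.41, adjusted p = 0.199).

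ID2 was low in the samples with many mitochondrial reads. In shAjuba2, Control and Ajuba OE replicate 2 had 0.576, 0.717 and 0.718 times the mean of the other samples of its line, whereas in shAjuba1 it had 1.02 times. The part of RNA quality in this was not tested. Without replicate 2 of shAjuba2, the log2 fold change of ID2 against shScrambled was 0.03 (adjusted p = 0.883). ID2 shares exon positions with ID2-AS1 on the opposite strand, which had 7541 counts in all, against 116716 for ID2, and the strand option of the counting is not given in the sources used here.

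**Figure D5:**
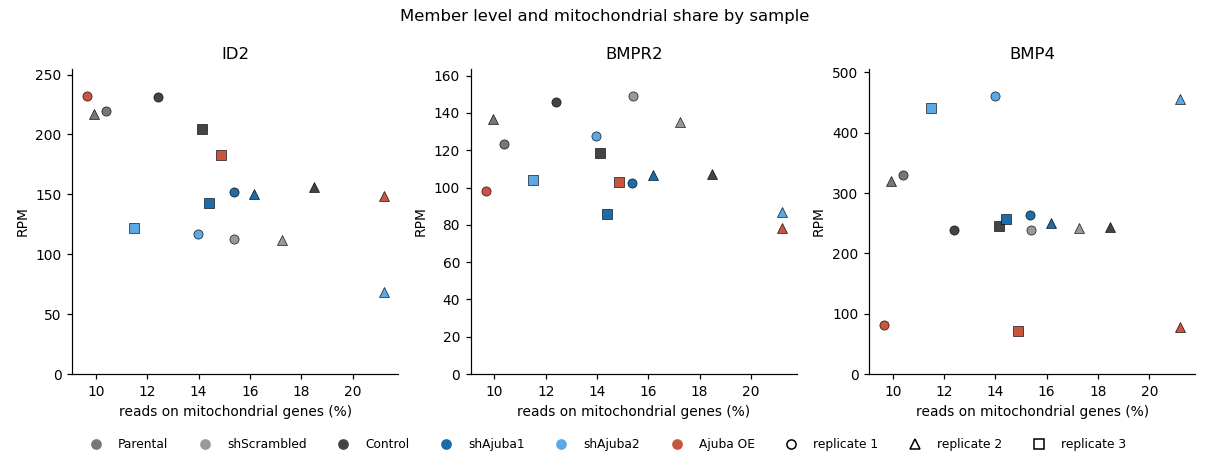
Level of ID2, BMPR2 and BMP4 in RPM (vertical axes) against the percentage of counts on mitochondrial genes (horizontal axes) in the 16 samples; colours are lines and shapes are replicate numbers. Replicate 2 of shAjuba2, Control and Ajuba OE (triangles from 18.5% to 21.2%) lies below the other samples of its line for ID2 and BMPR2 but not for BMP4.

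ID1 and ID3, the ID genes most often used as readouts of BMP signalling, had low levels, at 1.01 to 2.79 RPM and 0.293 to 0.981 RPM. Their counts were 36 to 122 and 12 to 59 per sample. ID1 was at 1.76, 1.56 and 2.79 RPM in shAjuba1, 1.53, 1.51 and 2.51 RPM in shAjuba2 and 1.26 and 1.41 RPM in shScrambled, so both knockdown lines lay above their control. The log2 fold changes were 0.58 ± 0.24 in shAjuba1 (adjusted p = 0.0722) and 0.42 ± 0.28 in shAjuba2 (adjusted p = 0.392). In Ajuba OE, at 1.67, 1.77 and 1.18 RPM, ID1 overlapped with Control, at 1.05, 1.22 and 1.82 RPM (log2 0.24 ± 0.26, adjusted p = 0.7). ID3 was at 0.847, 0.813 and 0.981 RPM in Ajuba OE and 0.699, 0.673 and 0.956 RPM in Control, which overlapped (log2 0.23 ± 0.23, adjusted p = 0.655). It was lowest in shAjuba1, at 0.293, 0.431 and 0.331 RPM, below shScrambled at 0.439 and 0.497 RPM, with a log2 difference of -0.47 ± 0.33 (adjusted p = 0.29), and against Parental it was called (-0.95, adjusted p = 0.0435). shAjuba2, at 0.774, 0.450 and 0.638 RPM, overlapped with shScrambled (log2 0.35 ± 0.31, adjusted p = 0.522). BMP4 was thus 3.00-fold lower in Ajuba OE and 1.82-fold higher in shAjuba2. No ID gene was called in either comparison, beside 5.43% and 7.63% of all genes. Of the 3 ID genes, 0 had an unadjusted p under 0.05 there and DESeq2 called 0. ID2, with 3051 to 16156 counts per sample, had log2 fold changes of -0.01 ± 0.19 in Ajuba OE and -0.19 ± 0.22 in shAjuba2. Those of BMP4 were -1.59 and 0.86, so ID2 showed no change of that size with BMP4. With 3 genes, of which ID1 and ID3 had low counts, these tests cannot show whether the ID genes as a set followed BMP4.

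The genes whose pattern over the 16 samples was most like that of each ID gene were sought among 14582 genes by Pearson's r of log2 CPM. For ID2 these were ANKMY2 (r = 0.967), NFE2L3 (0.952) and BRCC3 (0.947). For ID3 they were BARX2 (0.902), C1QL3 (0.885) and GNPTAB (0.884), and for ID1 they were YDJC (0.867), NDUFAF8 (0.847) and NUDT8 (0.836). The samples share lines and depth, so these values describe likeness in these libraries.

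Of 10 other targets of the pathway, MSX1 and HES1 were the 2 of 9 called in Ajuba OE, both lower. In shAjuba1 2 of 9 were called, MSX1 higher and TNFRSF11B, a decoy receptor for RANKL, lower (log2 -0.47, adjusted p = 0.00848). MSX1, a homeobox gene induced by BMP4 in many tissues, was at 62.7, 69.6 and 53.5 RPM in Ajuba OE and at 112.9, 125.6 and 118.9 RPM in Control, a fall of 0.88 ± 0.12 (adjusted p = 0.00651). It rose in shAjuba1 from 90.9 and 88.1 RPM to 138.0, 113.7 and 145.5 RPM (log2 0.55 ± 0.10, adjusted p = 0.000873). Against Parental the shAjuba1 value was 0.07 (adjusted p = 0.616). In shAjuba2, where BMP4 was highest, its log2 fold change was 0.18 ± 0.15 (adjusted p = 0.474). HES1, a repressor better known from Notch signalling, fell by 0.55 ± 0.11 in Ajuba OE (adjusted p = 0.0306), but this call was lost in each of the 6 fits without 1 sample (adjusted p from 0.0541 to 0.127), and against Parental the value was -0.0481 (adjusted p = 0.869). In shAjuba2 0 of 10 targets were called (3 at an unadjusted p under 0.05 and 0 by DESeq2).

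The partners that ID proteins bind were described by a list of 10 E proteins and other basic helix-loop-helix factors. TCF3, which encodes the E proteins E12 and E47, rose in both knockdown lines, from 73.6 and 76.9 RPM in shScrambled to 100.9, 90.7 and 116.0 RPM in shAjuba1 (log2 0.43 ± 0.10, adjusted p = 0.00409) and to 124.6, 132.4 and 128.7 RPM in shAjuba2 (0.73 ± 0.12, adjusted p = 0.0139). The call in shAjuba1 was lost without shScrambled replicate 1 (adjusted p = 0.0557), and that in shAjuba2 without shAjuba2 replicate 1 (0.0584) or shScrambled replicate 1 (0.226) or 2 (0.202). Against Parental TCF3 was called in neither line (log2 0.10 and 0.39). ASCL2, a factor of intestinal stem cells, rose in Ajuba OE from 16.7, 18.3 and 18.5 RPM to 47.1, 46.6 and 36.8 RPM (log2 1.35 ± 0.12, adjusted p = 0.00109). It also rose in shAjuba1 against shScrambled (log2 0.66 ± 0.17, adjusted p = 0.00835), although against Parental the value was -0.65 (adjusted p = 0.00724) and the call was lost without either shScrambled sample (adjusted p = 0.0776 and 0.0692). BHLHE40, the factor of highest level per kb on the list, was not called in the 3 main comparisons, where its log2 fold changes were 0.09, -0.31 and 0.17.

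The TGF-beta and activin arm, which uses other receptor SMADs but shares SMAD4 and SMAD7, had 13 genes, of which shAjuba1 had 10 called, shAjuba2 1 and Ajuba OE 3, beside 38.4%, 7.63% and 5.43% of all genes. In shScrambled against Parental, 8 of these 13 were called, beside 30.7% of all genes. INHBB, an activin subunit, fell in shAjuba2 from 60.1 and 59.0 RPM to 21.2, 16.5 and 19.96 RPM (log2 -1.68 ± 0.13, adjusted p = 0.00104) and by 0.35 ± 0.11 in shAjuba1 (adjusted p = 0.0219). TGFB2, a ligand of this arm, fell by 0.71 ± 0.11 in shAjuba1 (adjusted p = 0.000292) and by 1.34 ± 0.14 in Ajuba OE (adjusted p = 0.00182). TGFBR3, a coreceptor that also binds BMPs, rose by 0.52 ± 0.13 in shAjuba1 (adjusted p = 0.00586) and fell by 0.94 ± 0.11 in Ajuba OE (adjusted p = 0.00319), and LTBP1, which holds latent TGF-beta in the matrix, rose by 0.44 ± 0.14 (adjusted p = 0.0284) and fell by 1.07 ± 0.23 (adjusted p = 0.0384). In shAjuba1 the call of INHBB was lost without shAjuba1 replicate 1 or 2 or either shScrambled sample (adjusted p up to 0.166), that of TGFBR3 without shScrambled replicate 2 (0.13), and that of LTBP1 without shAjuba1 replicate 2 (0.0668) or shScrambled replicate 2 (0.35). The call of LTBP1 in Ajuba OE was lost without Ajuba OE replicate 1 or 3 or Control replicate 1 or 3 (adjusted p up to 0.168). Against Parental TGFB2 and INHBB were not called in shAjuba1 (log2 -0.06 and -0.20), and LTBP1 turned to -0.46 and was called lower (adjusted p = 0.00934), while in Ajuba OE LTBP1 was at -2.28 against Parental. ACVR1B had the highest level of this list, at 15.7 RPM per kb. It was not called in shAjuba1, shAjuba2 or Ajuba OE (log2 0.05, -0.31 and 0.37).

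Over the 81 other genes of the pathway lists, 33 of 62 tested were called in shAjuba1 (15 higher and 18 lower), 6 of 65 in shAjuba2 (4 higher and 2 lower) and 9 of 60 in Ajuba OE (2 higher and 7 lower). Over all genes 38.4%, 7.63% and 5.43% were called. Their median log2 fold changes were -0.08, -0.07 and 0.00, near the medians of -0.01, -0.01 and -0.02 over all genes. In shScrambled against Parental, where no line had an shRNA against AJUBA, 30 of 64 tested were called, beside 30.7% of all genes. That comparison shares its shScrambled samples with the one of shAjuba1. The pathway lists were written with earlier results of these data known.

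The control lines differed among themselves in several of the 10 genes. In shScrambled against Parental, 3 of 10 were called, where 30.7% of all genes were, and BMP4, BMP7 and ID2 were all lower in shScrambled, where 15.6% of all genes were called lower. BMP4 had 0.737 times the Parental level (log2 -0.44 ± 0.08, adjusted p = 0.000155). In Control against Parental the test called 0 of 10 (2 at an unadjusted p under 0.05 and 2 by DESeq2), where 0.37% of all genes were called, although BMP4 in Control was also below both Parental samples (log2 -0.42 ± 0.10, adjusted p = 0.126). In Control against shScrambled, 2 of 10 were called, where 5.8% of all genes were, with BMP2 lower and ID2 1.77-fold higher in Control (adjusted p = 0.0386). The ID2 call was lost in 4 of 5 fits without 1 sample, namely without Control replicate 1 (adjusted p = 0.0549) or 3 (0.162) and without shScrambled replicate 1 (0.288) or 2 (0.307). For BMP4, both control lines of the main comparisons lay within 238 to 245 RPM, so shAjuba2 and Ajuba OE stood on either side of both controls and, at 441 to 460 and 71.7 to 81.3 RPM, of Parental.

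Between the 2 knockdown lines, 3 of 10 genes were called, where 19.6% of all genes were. BMP4 was lower in shAjuba1, and BMP2 and SMAD6 were higher there. ID2 was 1.50-fold higher in shAjuba1 than in shAjuba2 (adjusted p = 0.0532), with no overlap of the samples, and ID3 had a log2 fold change of -0.80 ± 0.30 (adjusted p = 0.0934). BMPR1A, BMPR2 and ID1 had log2 fold changes of 0.08 ± 0.12, -0.06 ± 0.15 and 0.18 ± 0.27 between these lines. Both lines were made from the same cells against the same gene, and the level of AJUBA differed between them by -0.26 ± 0.12 (log2, adjusted p = 0.141).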

How the data were processed

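Stranded mRNA libraries of 16 samples from 6 SW480 lines were sequenced in pairs. The authors used HISAT2 with hg38, counted read pairs on exons with featureCounts and deposited the raw counts per gene. The strand option, annotation release and versions are not given in the sources used here. Symbols and positions were taken from GENCODE v44, which held 56434 of 66023 identifiers and 99.8% of counts.

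RPM is the count divided by the sample total, times 1000000, and RPM per kb divides this by exon length. Each fit held only the samples of the 2 lines compared and used edgeR 4.0.16 (R 4.3.3, limma 3.58.1) with filterByExpr by line, TMM and the two-sided quasi-likelihood test. p-values were Benjamini-Hochberg adjusted over all genes tested, and a gene was called under 0.05. Standard errors came from the log2 fold change and the square root of F. An F test on all 16 samples compared the 6 lines. The fits of the 3 main comparisons were tested on simulated counts drawn independently for each sample. These held no shift of replicate 2, so that test did not cover it. Replicates of a line differed by at least 1.87 times the counting noise, so none was counted as a duplicate.

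Alternatives were DESeq2 1.42.0 or its size factors, every gene with at least 1 count, all 16 samples, a replicate block, Parental as control, a minimum log2 fold change of 1 in either direction, and each sample left out. Leaving out replicate 2 of both Control and Ajuba OE was added after seeing the data. The members, the 9 pathway lists and the 4 marker lists were chosen with earlier results of these data known, and a few genes are left out of the lists and not reported here. Named beside the members were genes of the pathway lists called in both knockdown lines or in Ajuba OE, the gene of highest level per kb in each list, and for each ID gene the 3 genes with a mean RPM of at least 1 and the highest correlation of log2 CPM (prior count of 2). Figures were drawn with matplotlib 3.10.9 in Python 3.11.15. Low counts limit the precision for BMP2, ID1 and ID3.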

Additional observations from a re-analysis of the deposited data

Results flagged for a closer look

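The effects of the 2 shRNAs on a gene were compared by testing shAjuba1 against shAjuba2, since both lines share shScrambled as their control. Of the 10 genes, 3 differed by this test (edgeR's quasi-likelihood test, Benjamini-Hochberg). BMP2 had a log2 fold change of 2.49 in shAjuba1 over shAjuba2 (adjusted p = 0.00194), SMAD6 of 1.15 (0.00205) and BMP4 of -0.77 (0.00139). The samples of the 2 lines did not overlap for any of the 3.

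Other named genes of the pathway differed as well. BMP6 had a log2 fold change of 1.67 (adjusted p = 0.000611), BAMBI of 1.04 (0.00316), INHBB of 1.34 (0.000249) and TGFBR3 of 0.64 (0.00852), all higher in shAjuba1. GREM1, at -2.74 (adjusted p = 2.54e-05), was higher in shAjuba2. Smaller differences were found for PMEPA1 at 0.36 (adjusted p = 0.0402), BHLHE40 at 0.42 (0.0321), TGFB2 at -0.55 (0.0224) and HES1 at -0.54 (0.0105). That of PMEPA1 was lost without any 1 sample but shAjuba2 replicate 2 (adjusted p = 0.051 to 0.155), that of BHLHE40 without any sample of shAjuba1 or without shAjuba2 replicate 3 (0.0731 to 0.103), and that of TGFB2 without any sample of shAjuba1 or without shAjuba2 replicate 1 (0.0616 to 0.0884). HES1 was lost without shAjuba1 replicate 2 (0.0617) and TGFBR3 without shAjuba1 replicate 1 (0.0505).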

How the results depend on the processing

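BMP4 in Ajuba OE against Control was called in all 14 alternatives, with log2 fold changes of -2.03 to -1.53, and SMAD6 in shAjuba1 against shScrambled in all 12. With replicate 2 of Control and that of Ajuba OE left out together, which was chosen after seeing the data, the count in that comparison stayed at 1. Of 4 genes called in shAjuba1 there were 2 with all 16 samples and 1 with a log2 fold change of 1 or more in size. Of 2 in shAjuba2 there were 1 at that fold, 4 with the replicate block and 0 to 4 without 1 sample (0 without shAjuba2 replicate 1 or shScrambled replicate 1, 4 without shAjuba2 replicate 2). Of 1 in Ajuba OE there were 3 with the block and 2 against Parental. Of 3 between the knockdown lines there were 6 with all 16 samples and 3 to 5 without 1 sample. Of 3 in shScrambled against Parental there were 0 at the fold. Of 0 in Control against Parental there were 2 with every gene of at least 1 count, with DESeq2 or with all 16 samples, 1 with the block and 0 to 2 without 1 sample. Of 2 in Control against shScrambled there were 1 at the fold and 0 to 2 without 1 sample. The cause was not tested, apart from the fold, which removes smaller changes by construction.

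Of 942 log2 fold changes under alternatives, 774 kept their direction and side of the threshold, 120 lost a call, 19 gained one and 29 changed sign. Against Parental the signs turned in shAjuba1 for BMP2 (0.0554), BMP4 (-0.37), BMP7 (-0.10), ID2 (-0.58), PMEPA1 (0.24), ASCL2 (-0.65) and LTBP1 (-0.46), of which BMP4, ID2, ASCL2 and LTBP1 were called with the turned sign, in shAjuba2 for ID3 (-0.13) and in Ajuba OE for BMP7 (-0.16) and SMAD7 (0.0231). In Ajuba OE, BMPR1A was at 0.0041 and ID2 at 0.0061 with DESeq2's size factors, at 0.0118 and 0.0142 with every gene, at 0.0258 and 0.0278 with DESeq2, and at 0.0033 and 0.0061 with all 16 samples. Leaving out 1 sample moved uncalled values across 0 for BMP2 in shAjuba1 (-0.84 to 0.47), ID2 (-0.31 to 0.0256), SMAD6 (-0.0657 to 0.13) and SMAD7 (-0.0192 to 0.0621) in shAjuba2, and BMPR1A (-0.0932 to 0.10) and ID2 (-0.16 to 0.12) in Ajuba OE.

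The labels do not say what same-numbered replicates share. Their deviations from the line means correlated at 0.099, 0.505 and -0.049 between Ajuba OE and Control, at 0.069 and 0.188 between shAjuba2 and shScrambled and at 0.053 and -0.063 between shAjuba1 and shScrambled. With the replicate block, calls over all genes moved from 1713 to 5377 in shAjuba2, from 1147 to 5140 in Ajuba OE and from 8103 to 8863 in shAjuba1, and SMAD6 (log2 -0.58, adjusted p = 0.00837) and BMPR2 (-0.34, 0.00713) were called in Ajuba OE. Over all genes, main counts of 1713, 1147 and 80 (shAjuba2, Ajuba OE, Control against Parental) were 3672, 2386 and 530 with all 16 samples, and 6526 in shScrambled against Parental became 1696. With every gene of at least 1 count, 1713, 80 and 1272 (Control against shScrambled) became 3210, 1947 and 2661.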

Other observations

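Further genes of the pathway lists, chosen after their values were seen, moved in shAjuba1 against shScrambled. Among ligands GDF7 rose by 2.18 on the log2 scale (adjusted p = 2.77e-05 by edgeR's quasi-likelihood test), and among antagonists NOG, which encodes noggin, rose by 1.63 (0.00017) while SOSTDC1 fell by 2.53 (5.88e-05). In the TGF-beta arm SMAD3 rose by 0.92 (adjusted p = 5.19e-06), and TGFB3 fell by 0.84 (0.000393), INHBA by 0.81 (0.00448) and ACVR1C, a type I receptor, by 1.52 (0.000331). SKIL, a corepressor of SMADs, fell by 0.68 (0.000192), and TCF4, an E protein, by 1.84 (0.0041). Of these genes, SOSTDC1, ACVR1C, TGFB3 and SKIL were also called in shScrambled against Parental, so their shared control itself differed from Parental. Counts were low for NOG (8 to 64 per sample), SOSTDC1 (4 to 55) and TCF4 (2 to 40). In shAjuba2 SKI, the corepressor related to SKIL, rose by 0.63 (adjusted p = 0.0304).

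The genes most like BMP4 over the 16 samples, a search added after its values were seen, were CDKN2B (Pearson's r = 0.991), SEMA5A (0.989) and ANXA1 (0.984). For SMAD6 they were AGFG2, MICALL1 and ITGA3 (each 0.971). CDKN2B encodes the cell cycle inhibitor p15, and ANXA1 encodes annexin A1. The samples share lines and depth, so these are descriptions of these libraries.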
